A study of Mus musculus with 2 samples.

Results

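Chaperones of the endoplasmic reticulum (ER) are described here by 10 genes, Hspa5, Hsp90b1, Hyou1, Dnajb11, Sdf2l1, Calr, Pdia4, Pdia6, Creld2 and Manf. They were found by symbol among the 32589 features of the deposited count tables, and all 10 were present in both libraries. The genes were listed as ER chaperones with their ratio between the libraries already known, so that ratio is given as a description and supports nothing. All 10 passed the filter on low values used below, a mean of at least 20 CPM (counts per 1e6 UMIs) in microglia-like cells, and all are protein-coding genes in the GENCODE annotation of GRCm38.

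The cells came from the prefrontal cortex of C57BL/6 mice and were sorted as CD45low CD11b+ microglia, the resident macrophages of the brain, after enzyme digestion at body temperature. One group received vehicle and the other corticosterone, the main glucocorticoid of rodents, by oral gavage, which models depression linked to an excess of stress hormone. Each group had 1 library, made with a GEXSCOPE kit for single-cell RNA sequencing. Dose, duration, age, sex, and the number of animals pooled in a library are not given in the labels. With 1 library per group no test between groups was possible, group and library cannot be told apart, and the intervals below are 95% intervals for counting error only.

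Proteins that enter the secretory pathway fold in the ER with the help of chaperones, co-chaperones and enzymes that form disulfide bonds. When unfolded proteins build up, the sensors Ire1 (gene Ern1), Perk (Eif2ak3) and Atf6 start the unfolded protein response (UPR), in which Xbp1 and Atf6 raise transcription of the folding machinery and Perk slows translation and raises Atf4. In microglia the same machinery folds the surface receptors, complement proteins and lysosomal enzymes that these cells make in large amounts.

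The ER stress response element (ERSE), through which Atf6 and Xbp1 are known to act, is made of CCAAT and CCACG with any 9 bases between them. It was searched on both strands in RefSeq windows (GRCm38.p6) of 250 bases before and 50 bases after the transcription start. A window was available for 8 of the 10 genes. An ERSE was present in 5 of these 8, against 0.119% of 32851 windows of all genes. The ERSE is a known element of ER stress genes, so these shares are a description and no test. The 6 matches are shown because 5 of the 8 windows hold at least 1, each read on the strand that carries CCAAT, with both boxes in capitals.
Hspa5, chr2:34772025-34772043, + strand: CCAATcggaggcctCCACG
Hsp90b1, chr10:86705638-86705656, - strand: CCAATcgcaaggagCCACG
Hsp90b1, chr10:86705533-86705551, + strand: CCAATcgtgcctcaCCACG
Calr, chr8:84847075-84847093, + strand: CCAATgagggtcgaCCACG
Pdia6, chr12:17266491-17266509, + strand: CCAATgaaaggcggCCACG
Creld2, chr15:88819520-88819538, - strand: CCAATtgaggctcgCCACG

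The matches began 65 bases before the start in Hspa5, 98 in Pdia6, 126 in Creld2 and 162 in Calr. Hsp90b1 held a pair of them on opposite strands, beginning 212 and 107 bases before its start. Starts are those of RefSeq, and the match of Hspa5 lies inside the gene as GENCODE bounds it. The related ERSE-II, ATTGG and CCACG with any 1 base between them, was found in 1 of the 8 windows, that of Dnajb11 (chr16:22857852-22857862, + strand, 7 bases after the start), against 0.0365% of all windows, and overlapped no ERSE.
Dnajb11 ERSE-II: ATTGGcCCACG

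The stretches before the start of the 4 genes whose ERSE lies upstream of every annotated start are shown 5′ to 3′ along the gene, with the element in capitals (where the element lies on the opposite strand it reads CGTGG, then 9 bases, then ATTGG).
Hsp90b1, chr10:86705510-86705694, - strand: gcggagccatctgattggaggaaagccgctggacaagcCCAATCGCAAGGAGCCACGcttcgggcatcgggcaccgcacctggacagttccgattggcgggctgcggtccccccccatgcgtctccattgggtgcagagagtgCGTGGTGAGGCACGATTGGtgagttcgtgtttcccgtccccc
Calr, chr8:84846935-84847181, - strand: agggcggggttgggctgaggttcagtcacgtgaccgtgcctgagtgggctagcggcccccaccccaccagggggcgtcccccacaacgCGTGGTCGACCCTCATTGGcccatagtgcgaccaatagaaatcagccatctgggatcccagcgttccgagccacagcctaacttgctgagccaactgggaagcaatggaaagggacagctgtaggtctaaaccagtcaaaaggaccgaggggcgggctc
Pdia6, chr12:17266339-17266544, + strand: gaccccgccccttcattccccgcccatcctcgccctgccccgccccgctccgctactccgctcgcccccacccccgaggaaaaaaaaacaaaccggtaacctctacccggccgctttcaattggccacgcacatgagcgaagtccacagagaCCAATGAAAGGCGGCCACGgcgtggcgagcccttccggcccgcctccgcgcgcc
Creld2, chr15:88819396-88819645, + strand: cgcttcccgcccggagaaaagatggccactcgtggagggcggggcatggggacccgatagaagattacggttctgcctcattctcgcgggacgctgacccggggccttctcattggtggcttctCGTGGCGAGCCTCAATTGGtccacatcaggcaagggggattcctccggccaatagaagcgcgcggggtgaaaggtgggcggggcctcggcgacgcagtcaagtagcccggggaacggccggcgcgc

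Sdf2l1, the member with the largest ratio between the libraries, and Pdia4 held neither element in their windows. With 1 of the 10 fixed letters of the ERSE allowed to differ, Pdia4 also matched, so that 6 of 8 members did, against 1.5% of all windows. The UPR element core TGACGTGG was found in 0 of the 8 windows and in 0.676% of all windows. The stretch before Sdf2l1 is shown because it holds no match, although CCAAT and CCACG each occur in its window at other spacings. A match is a run of letters and no evidence that a factor was bound there, and its absence says only that these letters are not in this window.
Sdf2l1, chr16:17132384-17132633, - strand: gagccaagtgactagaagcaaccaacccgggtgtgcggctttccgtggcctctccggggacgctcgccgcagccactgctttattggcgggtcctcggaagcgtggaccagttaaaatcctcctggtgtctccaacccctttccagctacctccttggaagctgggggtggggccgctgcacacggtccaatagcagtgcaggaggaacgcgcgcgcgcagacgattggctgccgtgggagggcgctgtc

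Among 35 other genes of ER folding, 28 had a window and 2 held an ERSE, Canx and Dnajc3. Both genes are described with their values below. Among genes of ER-associated degradation, 2 of 18 windows held an ERSE and 1 an ERSE-II. In translocation and N-glycosylation, 1 of 23 windows held an ERSE-II and 0 an ERSE. Windows of the remaining gene lists used below held neither.

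After filtering, the vehicle library held 10500 cells and 49325067 UMIs and the corticosterone library 17883 cells and 85103539 UMIs, with medians of 3220.5 and 3961 UMIs per cell and 2.67% and 4.20% of UMIs in mitochondrial genes. Microglia-like cells numbered 7763 (73.9%) and 15198 (85.0%), with 31726027 and 71076236 UMIs, and all 10 markers of microglia were detected in them. The libraries separated within this class: cluster 1 held 92.7% of the vehicle microglia-like cells and 1.54% of the corticosterone ones, and clusters 0 and 2 held 64.0% and 30.1% of the corticosterone ones. None of the 10 chaperone genes was among the 2000 variable genes that made the clusters. Of the barcode strings, 104 occurred in both libraries.

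In microglia-like cells, every one of the 10 chaperone genes was higher in the corticosterone library. All 10 of 10 had a log2 ratio of corticosterone over vehicle of at least 0.5, a size that 7.12% of the 6600 genes with a mean of at least 20 CPM reached. Their log2 ratios ran from 0.59 to 1.70 with a median of 0.89, beside a median of 0.00 over all 6600 genes. Ranked from the highest ratio, the members lay between place 39 and place 347 of those genes. Since they were listed with these ratios known, nothing is read from the count or the ranks.

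**Figure D1:**
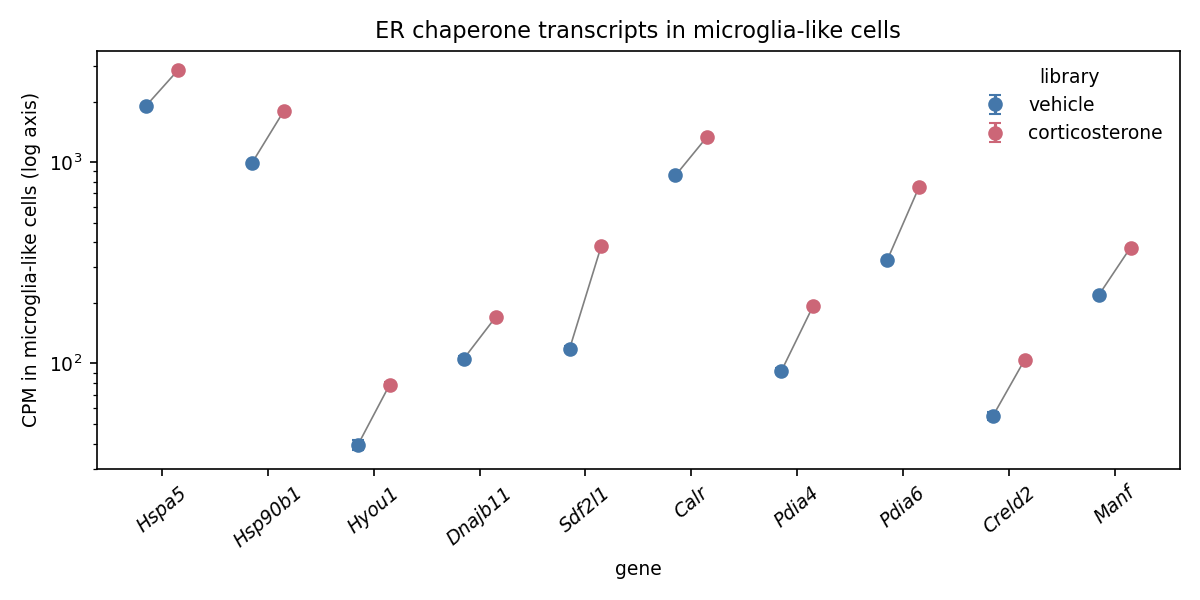
CPM (counts per 1e6 UMIs, log axis) of the 10 ER chaperone genes in the microglia-like cells of the vehicle and the corticosterone library. Points are summed UMIs of 1 library each, bars are exact Poisson intervals (mostly smaller than the points), and grey lines join the same gene. The corticosterone point is the higher for all 10 genes, with the steepest line for Sdf2l1, from 118 to 384 CPM.

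Hspa5 (BiP, chr2:34771970-34777547, + strand) is the Hsp70 chaperone of the ER, which binds unfolded chains and keeps the UPR sensors inactive while it is bound to them. Vehicle cells gave 1910 CPM of it (1894 to 1925) and corticosterone cells 2866 CPM (2854 to 2879), which makes a log2 ratio of 0.59 (0.57 to 0.60). This was the smallest ratio among the members. Hsp90b1 (GRP94, chr10:86690209-86705509, - strand), the Hsp90 of the ER, needed for folding of Toll-like receptors and integrins, stood at 993 CPM under vehicle and 1796 CPM under corticosterone (log2 ratio 0.86, 0.84 to 0.87).

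The partners of BiP were higher as well. Hyou1 (GRP170, chr9:44379490-44392369, + strand), which exchanges the nucleotide of BiP, had 39.4 CPM under vehicle and 78.5 CPM under corticosterone (log2 ratio 0.99, 0.91 to 1.08). Dnajb11 (ERdj3, chr16:22857845-22879634, + strand), a J-domain protein that hands clients to BiP, stood at 106 and 170 CPM (log2 ratio 0.68, 0.63 to 0.74). Sdf2l1 (chr16:17130138-17132383, - strand), which forms a complex with ERdj3, had 118 CPM (115 to 122) in the vehicle cells, and 384 CPM (380.0 to 389) in the corticosterone cells. Its log2 ratio of 1.70 (1.65 to 1.75), a fold of 3.25, was the largest of the 10, with an interval that lay above those of all other members.

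Of the lectin chaperones, Calr (calreticulin, chr8:84841850-84846934, - strand), which binds glycoproteins and stores calcium, stood at 859 CPM under vehicle and 1339 CPM under corticosterone (log2 ratio 0.64, 0.62 to 0.66). Both disulfide isomerases had larger ratios than Calr, BiP and GRP94. Pdia6 (P5, chr12:17266545-17284770, + strand) stood at 325 and 749 CPM (log2 ratio 1.20, 1.17 to 1.23), and Pdia4 (ERp72, chr6:47796141-47813430, - strand) at 91.6 and 193 CPM (1.07, 1.01 to 1.13). Creld2 (chr15:88819646-88826683, + strand), an ER stress-inducible resident protein, stood at 54.9 and 104 CPM (0.93, 0.85 to 1.003). Manf (chr9:106838312-106891979, - strand), a BiP-binding protein that cells secrete under ER stress, stood at 219 and 377 CPM (0.79, 0.75 to 0.82). Annotated genes overlap Manf, Pdia6, Hsp90b1, Dnajb11 and Pdia4 in the genome, and whether the counting used strand is not given in the sources used here.

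The libraries differ in depth and in which clusters hold the microglia, so the members were also read within bands of depth and within clusters. In cells of 500 to 2000, 2000 to 4000, 4000 to 8000 and over 8000 UMIs, the median log2 ratio of the members was 1.01, 0.91, 0.92 and 0.83, with 10 of 10 genes higher in each band. In clusters that hold cells of both libraries the order was the same. In cluster 1 the summed CPM of the 10 genes was 4711 in 7196 vehicle cells and 6702 in 234 corticosterone cells, and in cluster 0 it was 5088 in 186 and 8045 in 9734 cells. Cluster 2 gave 4590 in 319 and 8097 in 4572 cells, and cluster 5 gave 4719 in 42 and 8377 in 656 cells. In each of these 4 clusters 10 of 10 genes were higher in the corticosterone cells. The summed level in vehicle cells of clusters 0, 2 and 5 lay nearer to that of the vehicle cells of cluster 1 than to any corticosterone value. The log2 ratio of the sums ran from 0.51 in cluster 1 to 0.83 in cluster 5. In each of these clusters 1 library gave few of the cells, so cell state was not held fixed. The part of cluster make-up in the ratios was not tested. In cluster 1, Hyou1 stood at 39.4 and 43.5 CPM and Sdf2l1 at 117 and 248 CPM.

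Cell by cell, the difference was a shift of the whole distribution. With each cell thinned to 2000 UMIs, the 10 genes together gave a median of 9 UMIs in 6061 vehicle cells and 15 UMIs in 14479 corticosterone cells, with the 5th percentile at 3 and 6 and the 95th at 17 and 29. The thinning left out 1702 vehicle and 719 corticosterone cells with fewer UMIs. At least 5 of the 10 genes were detected in 34.7% of the vehicle and 73.3% of the corticosterone cells. Spread beyond Poisson counting, as a coefficient of variation of the summed UMIs, was 31.6% and 35.1%. For Hspa5 alone it was 53.8% and 57.0%, and for Hsp90b1 38.5% and 34.8%. This spread was larger in corticosterone for 2 of the 10 genes, Hspa5 and Dnajb11.

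**Figure D2:**
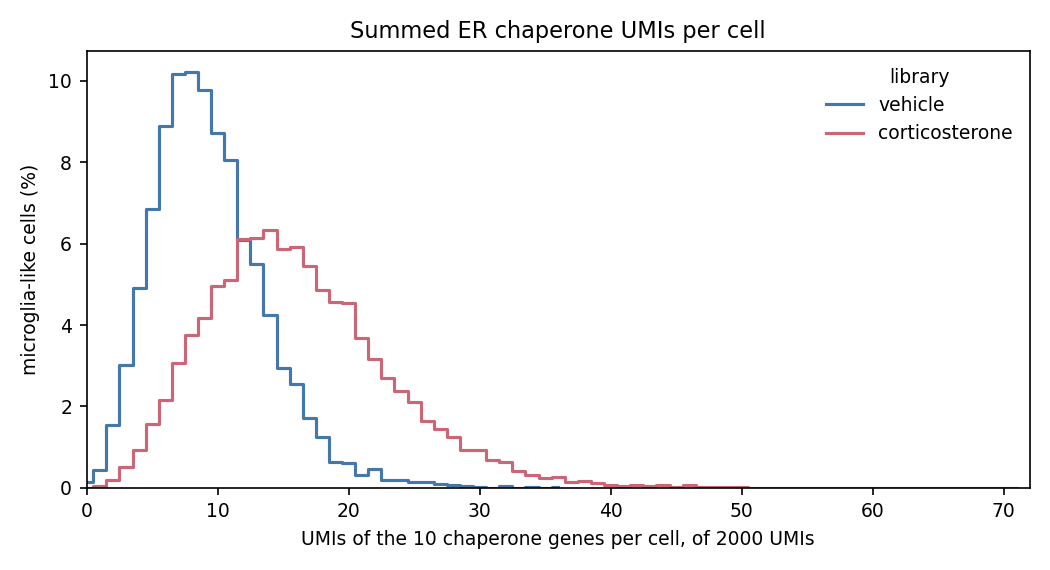
Share of microglia-like cells (percent) against the summed UMIs of the 10 ER chaperone genes per cell after thinning each cell to 2000 UMIs. Lines are the vehicle library (6061 cells) and the corticosterone library (14479 cells). The whole corticosterone curve lies to the right, with a median of 15 against 9 UMIs, and the curves overlap.

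At 1000 UMIs per cell, Sdf2l1 had at least 1 UMI in 10.7% of vehicle microglia-like cells (exact binomial interval 10.0 to 11.5%) and in 29.6% of corticosterone ones (28.9 to 30.3%). Without thinning, at medians of 3187 and 3999 UMIs, these shares were 30.3% and 69.7%. Erythroid cell-like barcodes, a class that should hold few of these transcripts, had an Sdf2l1 UMI in 8.22% (4.32 to 13.9%) and 22.0% (14.0 to 31.9%) at 1000 UMIs. Their unthinned median depths were 2482 and 3879 UMIs. For Pdia6 the shares in microglia-like cells were 25.9% (24.9 to 26.9%) and 50.7% (49.9 to 51.5%), and in erythroid cell-like barcodes 21.9% (15.5 to 29.5%) and 49.5% (38.8 to 60.1%). For both genes and in both libraries the share intervals of these 2 classes overlapped, with 146 and 91 erythroid cell-like barcodes at this depth. This did not hold for every member. In vehicle Hspa5 had 77.3% (76.3 to 78.2%) in microglia-like cells and 68.5% (60.3 to 75.9%) in erythroid cell-like barcodes. Hsp90b1 had 60.1% (59.0 to 61.2%) and 48.6% (40.3 to 57.0%) there. In corticosterone the intervals of both overlapped. In CPM the intervals of Sdf2l1 and Pdia6 were apart, and the erythroid cell-like level was the lower. For Sdf2l1 it was 79.1 (56.8 to 107) and 290.5 (243 to 344) CPM, beside 118 (115 to 122) and 384 (380.0 to 389) in microglia-like cells. For Pdia6 it was 214 (176 to 258) and 631 (560.5 to 708) CPM, beside 325 (319 to 332) and 749 (743 to 755.5). The erythroid cell-like barcodes also carried microglia transcripts: Sall1, P2ry12, Tmem119 and Siglech stood in them at a median of 0.799 and 0.861 times their microglia-like level.

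The members were read in 7 cell classes or clusters with at least 50 cells in each library. Neutrophil-like cells had the lowest level of 7 of the 10 genes in vehicle and of all 10 in corticosterone. Unnamed cluster 10, led by Spp1 and Lpl, had the highest level of 9 of 10 genes in either library, but it held 65 and 56 cells. Of these genes, Creld2, Manf, Hsp90b1, Dnajb11 and Hyou1 had intervals that overlapped those of microglia-like cells in vehicle. Sdf2l1, Hspa5, Pdia6 and Calr lay above them. In corticosterone the intervals overlapped for Sdf2l1, Creld2, Pdia4, Pdia6, Calr, Dnajb11 and Hyou1, while Hspa5 and Manf lay above. For Hspa5 in vehicle, cluster 10 gave 2220 CPM (2064 to 2385), beside 1910 in microglia-like cells. Border-associated macrophage-like cells gave 1932 (1906 to 1958) and neutrophil-like cells 1299 (1253 to 1346). Microglia-like and macrophage-like cells had overlapping intervals for Hspa5 in vehicle. In corticosterone the same classes gave 3456 (3272 to 3647), 2866, 2449 (2412 to 2486) and 1288 (1243 to 1335) CPM, all apart from each other.

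Macrophage-like cells of the border-associated kind, found in meninges and vessel walls, numbered 1064 and 796 in the vehicle and corticosterone libraries and had all 10 genes higher in corticosterone. Of these, 8 passed a log2 ratio of 0.5, a size that 8.32% of 6571 genes reached in this class, and the median was 0.75. Sdf2l1 had again the largest ratio, with 120 CPM (113 to 126) against 304 (292 to 318) and thus a log2 ratio of 1.35 (1.25 to 1.45). Hspa5 had the smallest, 0.34 (0.31 to 0.37). The ratio was smaller than in microglia-like cells for 10 of 10 genes, and for 7 of them the intervals did not overlap. The 4 microglia markers named above stood in macrophage-like cells at 0.820 and 0.648 times their microglia-like level, and the members at a median of 0.940 and 0.840 times theirs. The part of microglia RNA in these ratios, and whether the classes differ in their ratio, were not tested.

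Neutrophil-like cells (473 and 397 cells) joined 2 clusters whose shares differed between the libraries. Cluster 6, led by Retnlg, Slfn4 and Cxcr2, held 198 vehicle and 273 corticosterone cells, and cluster 7, led by the granule genes Ngp, Camp and Ltf, held 275 and 124. In the class as a whole 3 of 10 genes passed a log2 ratio of 0.5, Sdf2l1, Pdia4 and Pdia6, against 10.8% of 5931 genes, and the median was 0.22. Sdf2l1 had 68.4 CPM (58.2 to 79.9) under vehicle, against 168 (152 to 186) under corticosterone (log2 ratio 1.30, 1.03 to 1.57). Hspa5 was at 1299 CPM under vehicle and 1288 CPM under corticosterone. At 1000 UMIs per cell an Hspa5 UMI was found in 54.3% (49.1 to 59.4%) and 42.6% (37.6 to 47.6%) of these cells, and no order is read from this share beside the even CPM. The clusters were also read one by one, with no test between them. In cluster 6 all 10 genes were higher under corticosterone, with a median log2 ratio of 0.44, and Hspa5 had 1638 CPM (1566 to 1711) and 1773 CPM (1701 to 1848). In cluster 7 the median was -0.08, 5 genes were higher and 5 lower, and Hspa5 had 930 CPM (874 to 988) and 716 CPM (666 to 768). Sdf2l1 was higher under corticosterone in both clusters, with log2 ratios of 1.49 in cluster 6 and 0.76 in cluster 7. In the class as a whole, for 5 genes the interval of the ratio held 0, and for 9 of 10 the microglia-like interval lay above the neutrophil-like one. The level of the 10 genes relative to microglia-like cells had a median of 0.656 in vehicle and 0.434 in corticosterone. The 4 microglia markers named above stood in neutrophil-like cells at 0.563 and 0.356 times their microglia-like level, so the chaperones and the microglia markers were lower together there. These markers stood at 0.701 and 0.536 times that level in cluster 6 and at 0.395 and 0.141 times in cluster 7. The part of microglia RNA in these values was not tested.

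**Figure D3:**
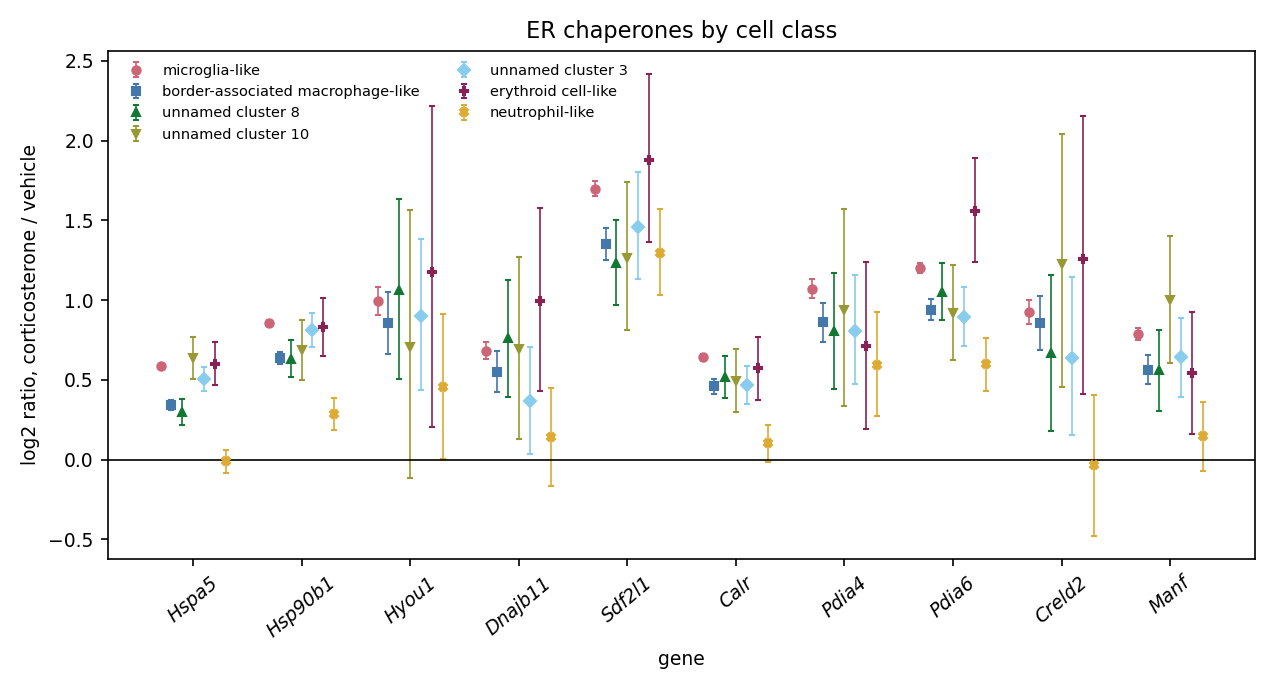
Log2 ratio of corticosterone over vehicle for each ER chaperone gene in 7 cell classes or clusters, with exact intervals for counting error (1 library per group). Neutrophil-like cells (yellow crosses), which join 2 clusters, give the lowest ratio for 9 of 10 genes, and Sdf2l1 is at 1.24 or more in every class.

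The remaining groups with values per gene had median ratios nearer to that of microglia-like cells than neutrophil-like cells had. Erythroid cell-like barcodes (176 and 93) had 10 of 10 genes past 0.5, where 22.6% of 6125 genes lay, and a median of 0.91. The median level of the 10 genes in them was 0.785 and 0.798 times that in microglia-like cells, close to the 0.799 and 0.861 of the microglia markers. Unnamed cluster 8 (210 and 93 cells), led by class II histocompatibility genes, had 9 of 10 past 0.5 (background 13.7%) and a median of 0.71. Unnamed cluster 10 had 9 of 10 (background 19.4%) and a median of 0.81. Unnamed cluster 3, of low UMI counts (677 and 1162 cells), had 8 of 10 (background 14.0%) and a median of 0.72. Monocyte-like cells (31 and 61) and endothelial cell-like barcodes (41 and 27) were too few in a library for values per gene, and gave summed CPM of 3321 and 4401, and of 4575 and 6806.

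Across single microglia the 10 genes varied together, and more so in the corticosterone library. For each gene, Pearson's r was taken over cells between its level and the sum of the other 9 (log of UMIs per 10000). The median r was 0.104 over 7763 vehicle cells and 0.291 over 15198 corticosterone cells. The 99th percentile of r with the summed members over 6590 other genes was 0.085 and 0.086, and 6 of the 10 members lay above it in vehicle and 10 in corticosterone. The other genes were not matched to the members in level, on which r depends. In vehicle, the 6 above were the 6 members with the highest CPM, so these counts also reflect level. Cells of 1 library share its depth and preparation, so these r values describe the libraries. All 45 pairs of members had r above 0 in both libraries, and all 45 had the higher r in corticosterone. The highest pair was Hsp90b1 and Calr in vehicle (0.146) and Pdia6 and Hsp90b1 in corticosterone (0.261). Hsp90b1 had the highest r with the other 9 in both libraries, 0.173 and 0.347, and Dnajb11 and Hyou1 were at the low end with 0.069 and 0.170 each.

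An r between sparse counts grows with the level of the genes, and the members were higher in corticosterone. With every cell thinned to 2000 UMIs and each member further thinned to its lower level of both libraries, the median r was 0.064 in vehicle and 0.125 in corticosterone, with 10 of 10 genes higher in corticosterone. Hspa5 gave 0.105 and 0.180, Calr 0.125 and 0.167, and Manf 0.068 and 0.146. The covariance with the other 9 relative to the product of the means, which does not grow with the level, had a median of 0.0582 and 0.110. It was again higher in corticosterone for 10 of 10 genes. Thinned to 2000 UMIs without matching of levels, 39 of 45 pairs were above 0 in vehicle and 45 in corticosterone. At full depth the summed members had r of 0.211 with the log of total UMIs in vehicle and 0.083 in corticosterone. The share of mitochondrial UMIs had r of -0.009 and -0.060 with the summed members, and the share of ribosomal protein UMIs had r of -0.063 and -0.189.

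**Figure D4:**
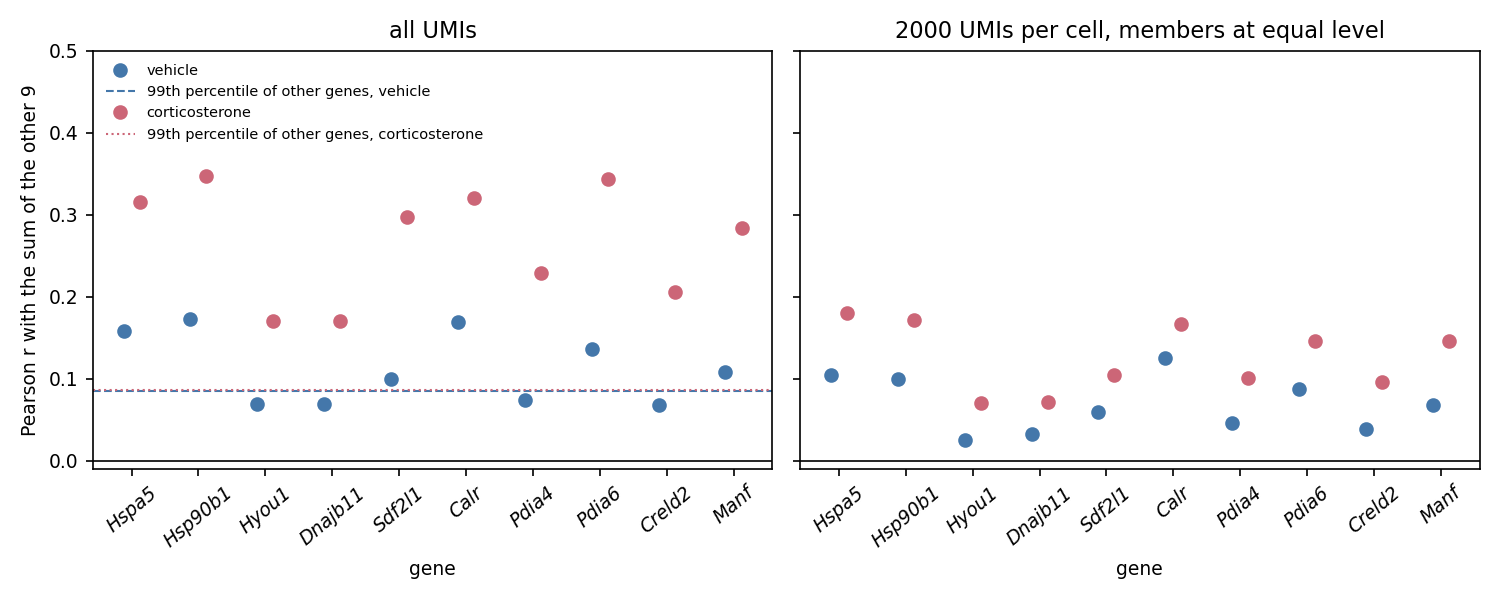
Pearson r across microglia-like cells between each ER chaperone gene and the sum of the other 9, in the vehicle and the corticosterone library. The left panel uses all UMIs (dashed and dotted lines: 99th percentile of 6590 other genes, 0.085 and 0.086), and the right panel uses 2000 UMIs per cell with each gene thinned to its lower library level. All 10 genes have the higher r in corticosterone in both panels, and the gap is smaller on the right.

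Hspa5 differed from the other members in its relation to immediate early genes, such as Fos and Egr1, which cells switch on within minutes of stimulation, digestion of tissue included. At 2000 UMIs per cell, Hspa5 had r of 0.129 in vehicle and 0.102 in corticosterone with the sum of 18 such genes. The other 9 members had r below 0 in both libraries, from -0.061 to -0.002 in vehicle and from -0.116 to -0.052 in corticosterone. The sum of the immediate early genes had a median of 104 UMIs per cell in vehicle and 91 in corticosterone. With cytosolic heat shock genes Hspa5 had the highest r of the 10, 0.046 and 0.122. Hspa5 also had the highest level of the 10, on which r depends, and levels were not matched here. With the sum of 22 interferon response genes, of which 21 were in the files, the summed members had r of -0.013 and -0.024, although that list was the one with the highest median ratio between the libraries (1.95 over 14 genes).

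Genes with a high r with the summed members across microglia were chosen by the smaller of their r values in both libraries. This r was taken at full depth and without matching of level, on which it depends. Pdia3, a disulfide isomerase that works with calreticulin, came before all others (0.158 and 0.308), and Canx, the membrane-bound lectin chaperone, had 0.116 and 0.181. Xbp1, the transcription factor of the Ire1 branch, had 0.108 and 0.161, and Tmed10, a cargo receptor of ER exit, 0.102 and 0.151. Also chosen were C1qa, a complement subunit (0.143 and 0.154), Cd9, a tetraspanin (0.117 and 0.149), and the lysosomal proteases Ctsb, Lgmn and Ctsz. Ctsz, cathepsin Z, had 0.099 and 0.209 and stood at 1211 and 2373 CPM.

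A second clustering of the microglia-like cells left out the ER genes and centred every gene within its library. In 5 sub-clusters of at least 50 cells in each library, the summed CPM of the members differed by a factor of 1.06 between the highest and the lowest in either library, and 10 of 10 genes were higher in corticosterone in all 5. In corticosterone Hspa5 had another order than the rest. It was lowest in sub-cluster 0 (led by Cmss1, Klf4 and Rgs1) with 1605 and 2474 CPM, where the 9 other members had their highest corticosterone level. In vehicle the other members had no common order, and Pdia6, Dnajb11 and Hyou1 were highest in sub-cluster 3, as Hspa5 was. Hspa5 was highest in sub-cluster 3, led by interferon genes, with 2009 (1905 to 2118) and 3157 (3105 to 3211) CPM. These intervals overlapped those of sub-cluster 2, at 1999 and 3135 CPM. At a finer resolution of 0.8, which gave 9 sub-clusters of that size, the highest summed level was in sub-cluster 6, led by Il1b, Cxcl16 and Gpr84 (129 vehicle and 559 corticosterone cells), with 5337 and 9849 CPM. There 7 of the 10 genes had their highest level in vehicle and 10 of 10 in corticosterone, for example Hspa5 with 2195 and 3752 CPM and Sdf2l1 with 159 and 463 CPM. The lowest summed levels were 4196 CPM in vehicle, in sub-cluster 4 (median 814 UMIs per cell), and 6889 CPM in corticosterone, in sub-cluster 9, so the factor between highest and lowest was 1.27 and 1.43 at this resolution. All 90 combinations of member and sub-cluster were higher in corticosterone.

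Among 27 of 35 other folding genes with at least 20 CPM, 21 were higher and 6 lower in corticosterone, with a median log2 ratio of 0.34. Past 0.5 lay 6, Pdia5, Txndc5, P4hb, Dnajc3, Pdia3 and Sil1, where 7.12% of all genes lay. Pdia5, a disulfide isomerase, had the highest ratio (12.9 to 28.0 CPM, 1.12). Dnajc3, the ERSE-bearing J-domain co-chaperone of BiP, stood at 163 and 262 CPM (0.68), and Canx at 631 and 733 CPM (0.22). Below -0.5 lay Fkbp7, a prolyl isomerase of the ER and the lowest (34.6 to 15.2 CPM, -1.19), and Dnajb9 (ERdj4), a UPR target that holds Ire1 in check (196 to 133 CPM, -0.56), where 6.24% of all genes lay. Of these genes Pdia5 and Fkbp7 were named by rule and the others after their values were seen.

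The UPR sensors and effectors lay on both sides of 0. Of 20 of 26 such genes with at least 20 CPM, 8 were higher and 12 lower, with a median of -0.09 (0.017 with DESeq2 size factors, which flips the sign). Eif2s1, the translation factor that Perk phosphorylates, was the highest and the only gene past 0.5 (69.6 to 104 CPM, 0.58). The 4 genes below -0.5 were Atf3 (1890 to 1059 CPM, -0.83), and, named after their values were seen, Ddit3 (76.2 to 46.8 CPM, -0.70), Nupr1 (91.8 to 58.5 CPM, -0.65) and Atf4 (452 to 299 CPM, -0.60). Atf3 is also an immediate early gene, and DESeq2 size factors, which shift all genes by 0.11, take Atf4 out of this group. The same shift brings Eif2ak3 and Atf6b past 0.5 beside Eif2s1. Atf6b, also named after its value was seen, stood at 45.4 and 64.0 CPM (0.495). Eif2ak3, which encodes the sensor Perk, had 31.2 CPM under vehicle and 41.4 CPM under corticosterone (0.41), and the transcription factors Cebpb and Cebpg had log2 ratios of -0.06 and 0.02. Xbp1 stood at 224 and 271 CPM (0.28) and Atf6 at 78.7 and 88.6 CPM (0.17). The tables count whole genes, so the spliced form of Xbp1 was not measured.

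In protein translocation and N-glycosylation, 22 of 29 genes were higher, 7 of them past 0.5, with a median of 0.28, from Sec62 (-0.24) to Rpn1 (0.93), a subunit of the oligosaccharyltransferase. For ER exit and retrieval the median was 0.16 over 19 genes, with 2 past 0.5, from Sec24a (-0.22) to Tmed9 (0.59). For ER-associated degradation it was 0.13 over 19 genes, with 1 past 0.5, from Herpud1 (-0.45) to Os9 (0.56). Cytosolic heat shock genes had a median of 0.21 over 16 genes, with 3 past 0.5 and 2 below -0.5, from Dnajb4 (-1.18) to Hspa8 (0.66).

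**Figure D5:**
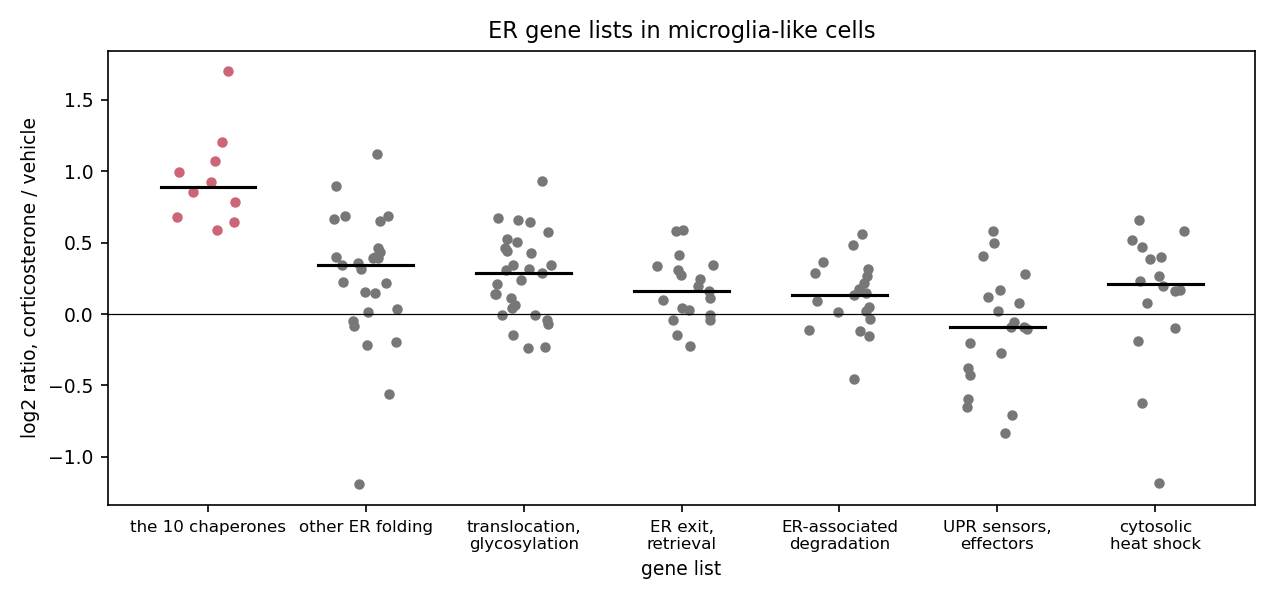
Log2 ratio of corticosterone over vehicle in microglia-like cells for the 10 ER chaperones (red) and for genes of 6 other lists (grey), each with a mean of at least 20 CPM. Points are genes, spread sideways for sight, and bars are list medians, such as 0.89 for the chaperones, 0.34 for other ER folding genes and -0.09 for UPR sensors and effectors.

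Markers of other cell types, summed in the microglia-like class, were lower in the corticosterone library for 12 of 16 lists. A sum can rest on 1 gene. Monocyte markers summed to 345 and 141 CPM although 5 of 7 were higher in corticosterone. That list holds Nr4a1, also an immediate early gene, at 328 and 114 CPM. Oligodendrocyte lineage markers were among the lists not lower, with 99.9 and 123 CPM and 4 of 6 higher. Neutrophil markers summed to 886 and 690 CPM, border-associated macrophage markers to 80.1 and 38.8, erythroid markers to 41.7 and 21.7, and plasma cell markers, of which Mzb1 and Ighg1 were at 0 in both, to 2.17 and 4.22 CPM. Microglia markers summed to 37940 and 32720 CPM, with 2 of 10 higher in corticosterone.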

How the data were processed

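The deposited tables hold raw UMI counts per gene and barcode, made by the authors. Per the submitters' processing notes, bcl2fastq 2.19 and the build GRCm38 were used. The aligner and counter are not given in the sources used here. Groups come from the sample records, since the file names use other words. The members, gene lists and tests were chosen with earlier results of these data known.

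Cells had at least 500 UMIs, 300 genes and at most 20% mitochondrial UMIs. Scrublet called 0 of 10500 and 0 of 17883 cells and thus failed, and no doublets were removed (an alternative drops the 6% with the highest scores). Cells of both libraries were clustered with scanpy 1.11.5 (2000 variable genes, 30 components, 15 neighbours, Leiden resolution 0.5). X-like names needed 3 or more markers, each present in 10% or more of a cluster's cells at 2 times its level elsewhere, and microglia-like was also given at 0.5 times the overall level of the microglia markers. Its 10 leading genes were compared with cells of other candidate classes. These thresholds and that comparison were set after seeing the data.

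UMIs were summed per class and library and scaled to CPM. Intervals are 95%, exact Poisson (sums), exact conditional (ratios) or Clopper-Pearson (shares). Size factors of edgeR 4.0.16 and DESeq2 1.42.0 served as other scalings. Genes named are the members, the 10 with the highest smaller r with the summed members (1 of them is not reported here), and the highest and lowest of each list. The methods were tested on simulated data. Of the 32589 gene identifiers, 32522 matched the annotation of GRCm38. Other scalings, cell filters, clusterings, thinning and correlation measures were tried as alternatives.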

Additional observations from a re-analysis of the deposited data

Results flagged for a closer look

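For 2 of the 10 genes the direction between the libraries had opposite signs in different cell classes (log2 ratio, corticosterone over vehicle). Hspa5 was -0.012 (-0.085 to 0.061) in neutrophil-like cells against 0.59 in microglia-like cells, and Creld2 was -0.035 (-0.477 to 0.407) against 0.93. The class joins cluster 6 (198 vehicle and 273 corticosterone cells) and cluster 7 (275 and 124), so its make-up differed between the libraries. Within them the ratio of Hspa5 was 0.12 (0.03 to 0.20) in cluster 6 and -0.38 (-0.51 to -0.24) in cluster 7. That of Creld2 was 0.21 (-0.35 to 0.77) and -0.51 (-1.28 to 0.25), and both of its intervals held 0. In cluster 7 the intervals of Manf (-0.45, -0.84 to -0.06) and Calr (-0.36, -0.57 to -0.15) also lay below 0. That of Sdf2l1 lay above 0 (0.76, 0.26 to 1.26), and those of the remaining members held 0. At 1000 UMIs per cell, 54.3% and 42.6% of neutrophil-like cells had an Hspa5 UMI. For Hspa5 and Creld2 the intervals of the whole class held 0, with 1 library per group, and the difference between the classes was not tested.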

How the results depend on the processing

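With 1 library per group, counting intervals leave out animals, batches and preparation, and the direction rests on the sample records. No paired analysis was possible because each group has 1 library and the labels give no shared replicate numbers. Over 16 alternatives of cells, clustering and scaling, the log2 ratios of the 10 genes gave 160 values, of which 160 were above 0, 126 lay within the counting interval, 34 outside it and 0 reversed. The median ratio ran from 0.85 (without cluster 2, an alternative added after seeing the data) to 0.998 (DESeq2 size factors, which shift all genes by 0.11, where edgeR's shift them by 0.09). The number of genes called was 10 throughout, except at a log2 ratio of 1, where it was 3. Of all genes, 6.73% to 11.0% (DESeq2 size factors) were called under the alternatives of cells and scaling, 11.8% with no filter on low values, 20.0% at a log2 ratio of 0.25 and 1.82% at 1. Read cluster by cluster, an alternative added after seeing the data, the neutrophil-like median of 0.22 was 0.44 in cluster 6 and -0.08 in cluster 7. The vehicle correlation of 0.104 became 0.064 when cells were thinned to 2000 UMIs, 0.065 given the log of total UMIs, and 0.064 with levels matched as well. The corticosterone correlation of 0.291 became 0.212 when cells were thinned to 2000 UMIs alone and 0.125 with levels matched as well, an alternative added after seeing the data. The median share of cells with a UMI, 15.0% in vehicle and 29.7% in corticosterone at 1000 UMIs, was 26.3% and 48.8% at 2000 UMIs and 39.1% and 70.1% without thinning. The median of the UPR sensors and effectors, -0.09, reversed to 0.017 under DESeq2 size factors, by their shift of all genes. Genes at about 40 CPM, such as Hyou1, were limited by depth in the smaller classes.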
